A study of Mus musculus with 7 samples.

Results

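Chemokines that attract neutrophils and genes that mark neutrophils were followed in mouse hearts with and without a model of myocarditis caused by immune checkpoint inhibitors (ICI). The group was chosen by name and held 8 genes of the 23393 gene rows used: the chemokine genes Cxcl1, Cxcl2 and Cxcl5, their receptor gene Cxcr2, the calprotectin genes S100a8 and S100a9, the cytokine receptor gene Csf3r, and Retnlg. Bulk RNA sequencing of ventricle compared 3 ICI-myocarditis mice, Ctla4+/-;Pdcd1-/-, with 4 control mice, Ctla4+/+;Pdcd1-/-. All 7 animals thus lacked Pdcd1 by label, all were 3 to 6 weeks old and untreated, and each library is 1 mouse. The comparison asked which of these transcripts differed in the inflamed heart. Neither group is a wild type, and the labels name no promoter or Cre that would limit the deletions to a tissue.

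Neutrophils are short-lived white blood cells that leave the bone marrow and are among the first to enter damaged tissue. CXC chemokines that carry a glutamate-leucine-arginine motif, such as CXCL1, CXCL2 and CXCL5, bind the receptor CXCR2 on neutrophils and direct their migration, while granulocyte colony-stimulating factor acts through the receptor encoded by Csf3r to drive their production and survival. S100A8 and S100A9 pair to form calprotectin, which fills the neutrophil cytosol, and Retnlg encodes a resistin-like protein made by neutrophils. Csf3r, S100a8 and S100a9 are also transcribed in monocytes, so none of these marks neutrophils alone.

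Libraries held 20931730 to 39037176 reads assigned to genes. Cardiomyocyte genes were abundant in every library, with a sum over 10 markers between 1844440 and 5071020 normalized counts (reads of a gene over the library's size factor), which matches the labelled tissue. Pdcd1 had 2.50 to 244 normalized counts in controls and 1096 to 1481 in ICI-myocarditis despite its label in all 7 mice, and Ctla4 had 29.2 to 113 and 251 to 373. Since exons were not counted apart, neither gene checked the labels. Control 2 stood apart from the other controls toward ICI-myocarditis: its 244 counts of Pdcd1 compare with at most 9.07 in controls 1, 3 and 4, and its sum over 11 T cell markers was 2641 against 683 to 980. Results below were therefore also computed without it.

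Of the 8 genes, Csf3r and Cxcl5 were higher in ICI-myocarditis, 3 tested genes (Cxcl1, S100a8, S100a9) did not pass, and 3 (Cxcl2, Cxcr2, Retnlg) lay under the filter, which asked for 10 normalized counts or more in 3 libraries or more. The share of all tested genes that limma called higher was 11.7%, and 15.7% were called in either direction, at a threshold of 0.05 on the adjusted p. All ICI-myocarditis libraries lay above all controls for Csf3r and Cxcl5 and for 17.3% of tested genes. None of the 5 tested genes among the 8 was called lower, against 4.00% of all tested genes. With so few genes, that count is not a result. Fold changes are given as log2 of ICI-myocarditis over control on the scale of log2(normalized count + 1), where the added 1 understates the change of low genes. They compare means of log2 values and can exceed the ratio of the group means. For Cxcl5 the fold was 8.43 against a ratio of 6.36, and for Csf3r 7.52 against 6.45. In bulk tissue, fewer cells of a type and less RNA per cell cannot be told apart.

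**Figure D1:**
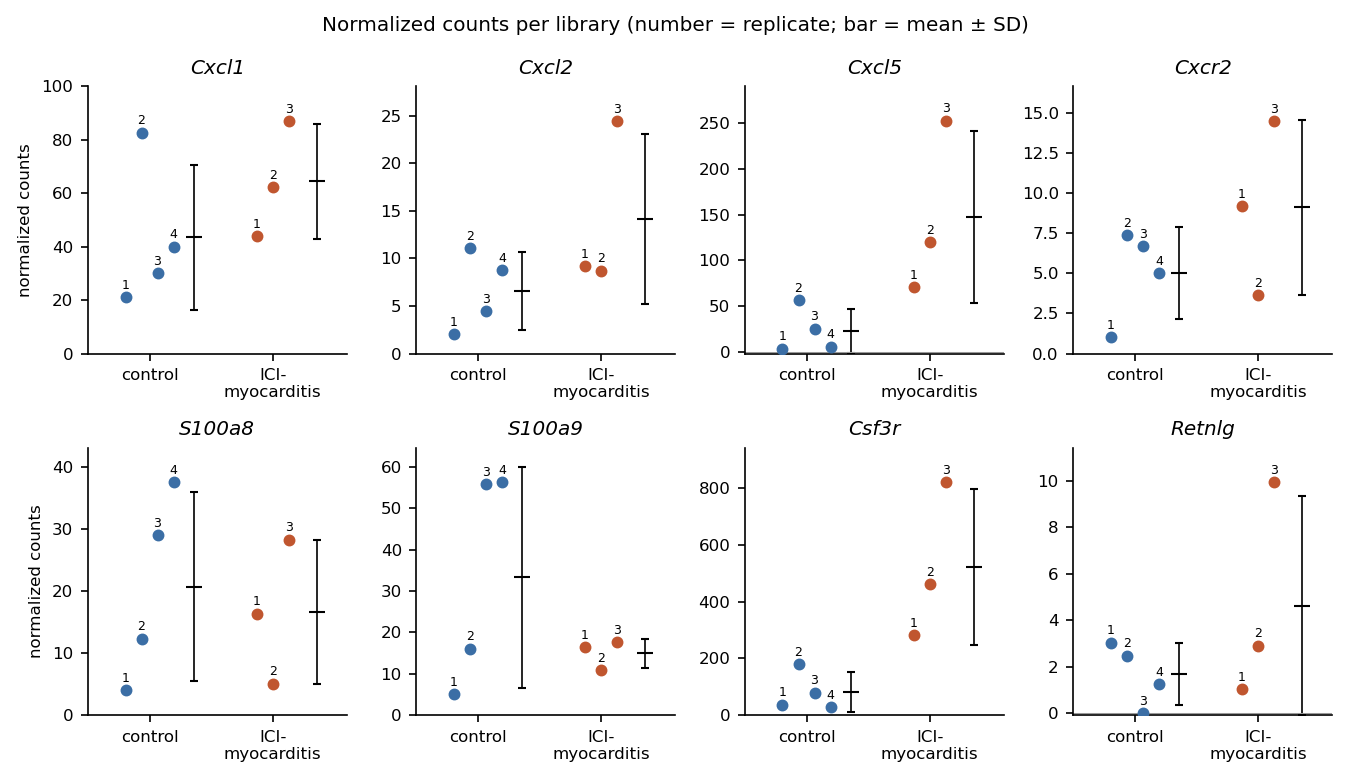
Normalized counts (vertical axes, linear) of the 8 genes in each library, with controls in blue and ICI-myocarditis in orange, replicate numbers beside the points, and bars for the group mean ± SD. For Cxcl5 and Csf3r all 3 ICI-myocarditis libraries sit above all 4 controls, while for the other 6 genes the groups overlap.

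The ligand genes are neighbours in the genome. On chromosome 5 of mouse build GRCm38, Cxcl5, Ppbp, Pf4, Cxcl3, Cxcl1 and Cxcl2 lie in this order, all on the plus strand, within 146.6 kb from 90759360 to 90905938 (GENCODE release M21). Cxcl5 spans 90759360 to 90761624, Cxcl1 spans 90891241 to 90893115 and Cxcl2 spans 90903871 to 90905938. S100a8 (chromosome 3, 90668978 to 90670035, plus strand) and S100a9 (90692632 to 90695721, minus strand) lie 22.6 kb apart. Cxcr2 is on chromosome 1 (74153989 to 74161246), Csf3r on chromosome 4 (126024550 to 126044440) and Retnlg on chromosome 16 (48872621 to 48874496), all on the plus strand.

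Promoter sequence from RefSeq (GRCm38.p6) was found for 7 of the 8 genes, all but Cxcl5. The stretches below show the pair of ligand genes that share a kB element, the binding site of NF-kB, and the calprotectin pair. Each is the 140 bases directly before the more upstream of the RefSeq and GENCODE gene starts, written 5′ to 3′ on the gene's strand, with capitals for matches to the NF-kB motif (GGG, any pair of bases, then TTTCC) or to the C/EBP motif TTNCNNAA on either strand. The places are chr5:90891101-90891240 (plus) for Cxcl1, chr5:90903731-90903870 (plus) for Cxcl2, chr3:90668838-90668977 (plus) for S100a8 and chr3:90695722-90695861 (minus) for S100a9.
Cxcl1: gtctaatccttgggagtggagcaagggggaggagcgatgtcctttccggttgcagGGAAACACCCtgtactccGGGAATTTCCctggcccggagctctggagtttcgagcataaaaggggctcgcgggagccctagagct
Cxcl2: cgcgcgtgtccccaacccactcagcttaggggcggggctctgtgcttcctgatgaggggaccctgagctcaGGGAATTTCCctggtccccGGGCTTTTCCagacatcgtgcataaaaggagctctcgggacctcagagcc
S100a8: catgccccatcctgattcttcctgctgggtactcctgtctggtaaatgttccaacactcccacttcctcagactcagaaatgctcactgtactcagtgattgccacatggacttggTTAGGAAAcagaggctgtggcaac
S100a9: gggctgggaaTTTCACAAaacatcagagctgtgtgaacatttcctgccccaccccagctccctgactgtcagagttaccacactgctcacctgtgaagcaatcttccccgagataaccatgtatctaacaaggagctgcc

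Cxcl1 and Cxcl2 each held 2 NF-kB matches in the window of 300 bases around the RefSeq start, where 1.63% of all 32851 promoters of the table held at least 1. The first base of these matches was at -89 and -71 from the RefSeq start for Cxcl1 and at -97 and -78 for Cxcl2, and the match GGGAATTTCC occurred in both. Cxcr2, S100a8, S100a9, Csf3r and Retnlg held no NF-kB match in their windows. The C/EBP motif, for a family of factors active in myeloid cells, was found in 40.7% of all promoters. It occurred in those of Cxcl2, S100a8, S100a9 and Retnlg. The sequence TATAAA, found in 13.6% of all promoters, occurred in those of S100a8 and S100a9. Its first base was at -30 from the RefSeq start for S100a8 but at 0, the start itself, for S100a9. These are matches of letters, and binding was not measured.

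Among the ligand genes, Cxcl5 was higher in ICI-myocarditis and Cxcl1 and Cxcl2 were not called. Cxcl5, which encodes the chemokine LIX, had 4.03, 56.7, 25.7 and 6.26 normalized counts in controls 1 to 4 and 70.6, 119.6 and 252 in ICI-myocarditis 1 to 3. Every ICI-myocarditis library lay above every control, with control 2 closest to them. Controls 1 and 4 were under 10, so Cxcl5 needed ICI-myocarditis libraries to pass the filter. The means were 23.2 ± 24.4 (SD, n = 4) and 147 ± 93.9 (SD, n = 3), and the log2 fold change was 3.07 (SE 0.839, 95% interval 1.18 to 4.97, limma adjusted p = 0.0374). The authors' deposited table gave Cxcl5 a log2 fold change of 2.68 and an adjusted p of 0.00412. The call is a weak one. Without control 1, 3 or 4 limma's adjusted p was 0.0883, 0.0661 and 0.0686, and without ICI-myocarditis 1, 2 or 3 it was 0.0518, 0.0919 and 0.161, while without control 2 it was 0.00487. edgeR on the recovered reads and scaling by total reads also missed the threshold (adjusted p = 0.0629 and 0.0539).

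Cxcl1, which encodes the chemokine KC, had 21.2, 82.6, 30.1 and 40.0 normalized counts in controls and 44.0, 62.3 and 87.1 in ICI-myocarditis. Controls 1, 3 and 4 lay below all ICI-myocarditis libraries, and control 2 lay above ICI-myocarditis 1 and 2. The log2 fold change was 0.68 (SE 0.485, 95% interval -0.41 to 1.78, limma adjusted p = 0.386). Without control 2 the estimate was 1.05 and the adjusted p 0.0872.

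Cxcl2, which encodes MIP-2, was read from only 2 to 32 reads per library. Its normalized counts were 2.02, 11.1, 4.47 and 8.76 in controls and 9.21, 8.70 and 24.5 in ICI-myocarditis. ICI-myocarditis 3 was the highest library, and the other ICI-myocarditis libraries lay within the range of controls. In a fit without the filter the log2 fold change was 1.03 (SE 0.613, 95% interval -0.34 to 2.41, limma adjusted p = 0.330).

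The ligand genes were also set against each other within each library, which removes the size factor. Cxcl5 had 0.190, 0.687, 0.852 and 0.156 reads per read of Cxcl1 in controls 1 to 4 and 1.605, 1.92 and 2.89 in ICI-myocarditis. All 3 ICI-myocarditis libraries thus held more Cxcl5 than Cxcl1 reads and all 4 controls fewer. The mean log2 ratio differed by 2.51 (exact two-sided permutation p = 0.0571 over 35 splits, adjusted over 6 ratios 0.171), where the design cannot give a p below 0.0286. Cxcl5 over Cxcl2 ran from 0.714 to 5.75 in controls and from 7.67 to 13.8 in ICI-myocarditis (difference in mean log2 ratio 2.01, exact permutation p = 0.0857, adjusted 0.171). Cxcl2 over Cxcl1 overlapped between the groups, at 0.0952 to 0.219 and 0.140 to 0.281 (difference 0.50, exact permutation p = 0.257, adjusted 0.386). Divided by exon length (1.863 and 1.875 kb), Cxcl5 over Cxcl1 was nearly the same, from 0.157 to 0.857 in controls and from 1.61 to 2.91 in ICI-myocarditis. Neither difference passed the exact test, although the groups did not overlap.

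**Figure D2:**
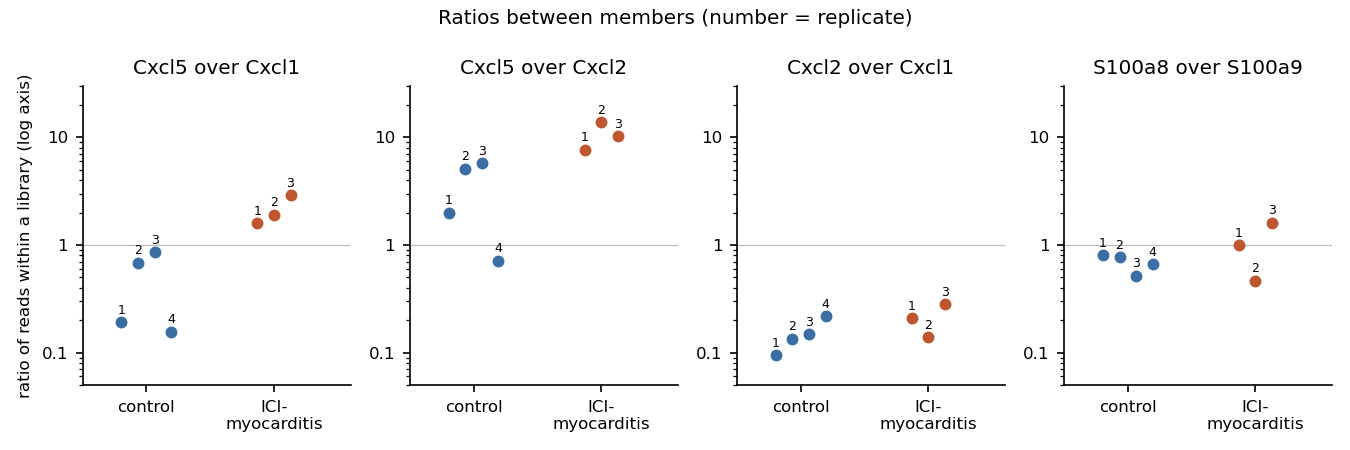
Reads of 1 gene per read of another within each library (vertical axes, log scale, the same range in all panels), with controls in blue and ICI-myocarditis in orange and replicate numbers beside the points. Cxcl5 over Cxcl1 lies between 0.156 and 0.852 in controls and between 1.605 and 2.89 in ICI-myocarditis, while Cxcl2 over Cxcl1 and S100a8 over S100a9 overlap.

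Of the 6 other genes with a row in the ligand and receptor system, Cxcl3, Cxcr1 and Ackr1 were low and Ppbp, Mif and Ackr3 were not. The list fixed for it held 11 genes, of which 10 had a row, 5 were tested and 1, Cxcl5, was called; the median log2 fold change was 0.46 among those tested and -0.02 among all genes tested in the study. Ppbp, a platelet gene whose product is cut to the CXCR2 ligand NAP-2, had 65.5, 225, 64.8 and 216 normalized counts in controls and 37.9, 52.2 and 16.05 in ICI-myocarditis. Every ICI-myocarditis library of Ppbp lay below every control, but limma did not call it (log2 fold change -1.88, SE 0.592, adjusted p = 0.0618). The authors' deposited table gave Ppbp an adjusted p of 0.00459. The 6 tested genes of 9 platelet and megakaryocyte markers included no call, and their sum ran from 519 to 1037 in controls and from 345 to 528 in ICI-myocarditis. The part of platelets in the Ppbp values was not tested.

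Cxcl3, a close relative of Cxcl1 and Cxcl2, was at 0 in controls 1, 3 and 4 and in ICI-myocarditis 1 and had at most 3.62 normalized counts elsewhere. Cxcr1, the other receptor of this family, was unread in every library but control 3, which had 1.12 normalized counts. A count of 0 allows up to 3 reads, or 2.17 to 3.75 normalized counts depending on the library, by counting error alone. The scavenging receptor gene Ackr1, listed under its older name Darc, had 3.75 to 17.1 normalized counts in controls and 8.19 to 21.4 in ICI-myocarditis. Ackr3, listed as Cxcr7, had a log2 fold change of -0.26 (limma adjusted p = 0.464), and Mif, a cytokine gene whose product also binds CXCR2, one of 0.46 (limma adjusted p = 0.372).

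Of the 2 receptor genes among the 8, Csf3r was higher in ICI-myocarditis and Cxcr2 was too low to test. Csf3r had 36.3, 179, 79.3 and 28.8 normalized counts in controls and 282, 462 and 819.9 in ICI-myocarditis. The groups did not overlap, and control 2 was the highest control. The means were 80.8 ± 69.1 (SD, n = 4) and 521 ± 274 (SD, n = 3), with a log2 fold change of 2.91 (SE 0.618, 95% interval 1.52 to 4.30, limma adjusted p = 0.0140). Csf3r passed in 18 of 19 alternatives and missed the threshold without ICI-myocarditis 3, where the log2 fold change was 2.52 (limma adjusted p = 0.0654). The authors' deposited table gave Csf3r a log2 fold change of 2.69 and an adjusted p of 0.000127.

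Cxcr2, the receptor of the 3 ligands, rested on 1 to 19 reads per library. Its normalized counts were 1.008, 7.40, 6.70 and 5.005 in controls and 9.21, 3.62 and 14.5 in ICI-myocarditis. ICI-myocarditis 1 and 3 lay above all controls and ICI-myocarditis 2 below controls 2, 3 and 4. In the fit without the filter the log2 fold change was 0.77 (SE 0.639, 95% interval -0.66 to 2.20, limma adjusted p = 0.509).

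The calprotectin genes did not pass, and both were highest in controls 3 and 4. S100a8 had 4.03, 12.3, 29.0 and 37.5 normalized counts in controls and 16.4, 5.07 and 28.3 in ICI-myocarditis. S100a9 had 5.04, 16.04, 55.8 and 56.3 in controls and 16.4, 10.9 and 17.6 in ICI-myocarditis. All ICI-myocarditis libraries of both genes lay within the range of controls. The log2 fold changes were -0.20 for S100a8 (SE 0.798, 95% interval -1.996 to 1.602, limma adjusted p = 0.901) and -0.62 for S100a9 (SE 0.774, 95% interval -2.37 to 1.12, limma adjusted p = 0.645). The sign for S100a8 turned without control 3 or 4 and without ICI-myocarditis 2 (0.09, 0.21 and 0.43), whereas that for S100a9 stayed negative in all 18 alternatives that could be fitted.

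Controls 1 and 2 held few calprotectin reads, 4 and 10 for S100a8 and 5 and 13 for S100a9, and controls 3 and 4 held 26 and 30 for S100a8 and 50 and 45 for S100a9. The spread among controls was thus wider than the difference between groups. S100a8 over S100a9 was between 0.520 and 0.8 in all 4 controls and at 1.0, 0.467 and 1.61 in ICI-myocarditis (difference in mean log2 ratio 0.42, exact permutation p = 0.429, adjusted 0.514). Red blood cell markers, nearly all of whose counts came from the globin row Beta-s, summed to 10775, 21506, 28154 and 42576 normalized counts in controls 1 to 4 and to 28558, 11903 and 6852 in ICI-myocarditis. The other globin rows of the list (Hbb-b2, Hbb-b1, Hba-a2 and Hba-a1) were at 0 in all 7 libraries. The sum was highest in control 4, and its part in the calprotectin values was not tested.

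Retnlg, the remaining marker, had 3.02, 2.47, 0 and 1.25 normalized counts in controls and 1.02, 2.90 and 9.93 in ICI-myocarditis, from at most 13 reads in a library. ICI-myocarditis 3 was the highest library and the others overlapped. No library reached 10 normalized counts, and the fit without the filter gave a log2 fold change of 0.90 (SE 0.680, 95% interval -0.62 to 2.42, limma adjusted p = 0.462).

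**Figure D3:**
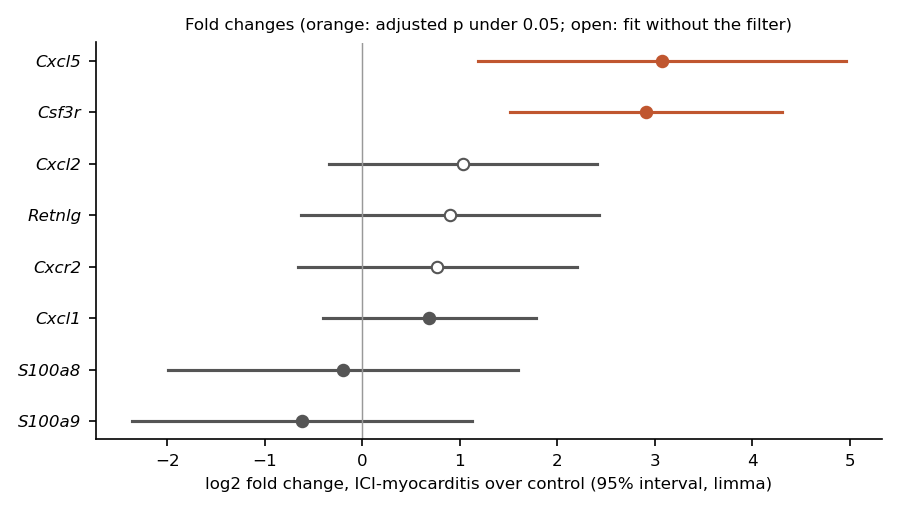
Log2 fold change of each of the 8 genes, ICI-myocarditis over control (horizontal axis), with its 95% interval from limma; orange marks an adjusted p under 0.05 and open circles mark genes taken from the fit without the filter. Csf3r at 2.91 and Cxcl5 at 3.07 stand clear of 0, and the intervals of the other 6 genes include 0.

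The order of levels differed between the groups when normalized counts were divided by exon length. In controls the means per kb were 63.8 for S100a9, 29.9 for S100a8, 23.2 for Cxcl1, 22.4 for Csf3r, 12.4 for Cxcl5, 3.18 for Cxcl2, 2.84 for Retnlg and 1.65 for Cxcr2. In ICI-myocarditis they were 144 for Csf3r, 79.1 for Cxcl5, 34.4 for Cxcl1, 28.6 for S100a9, 23.9 for S100a8, 7.79 for Retnlg, 6.83 for Cxcl2 and 2.99 for Cxcr2. Neighbours in either order overlapped in their ranges over libraries. In ICI-myocarditis Csf3r, from 78.2 to 227 per kb, lay above the highest library of Cxcl1 (46.5), S100a9 (33.7) and S100a8 (40.7), and in controls it did not (7.97 to 49.6). Cxcr2 was the lowest of the 8 by mean in both groups.

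Within a library, Csf3r had 4.00, 6.30, 0.934 and 0.307 normalized counts per count of S100a8 and S100a9 together in controls and 8.63, 29.0 and 17.9 in ICI-myocarditis. All ICI-myocarditis libraries lay above all controls (difference in mean log2 ratio 3.33, exact two-sided permutation p = 0.0571, adjusted over 6 ratios 0.171). Csf3r per count of Itgam, an integrin gene of neutrophils, monocytes and macrophages, ran from 0.0793 to 0.343 in controls and from 0.152 to 0.276 in ICI-myocarditis, so that the ranges overlapped (difference 0.34, exact permutation p = 0.6, adjusted 0.6). These 2 ratios were chosen after the values had been seen.

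Genes whose pattern over the 7 libraries was most like that of each tested gene were found by the mean absolute difference between profiles of log2(normalized count + 1), each centred on its own mean. Nearest to Csf3r were Bin2 (0.209), Nlrp3 (0.210) and Fyb (0.228), with log2 fold changes of 2.93, 2.56 and 2.99. Nearest to Cxcl5 were Treml4 (0.221), Gpr55 (0.276) and Csf3r (0.288). Gpr55 was not called (limma adjusted p = 0.0594). Gpr55 and Treml4 were low in controls, with means of 3.92 and 9.28 normalized counts. For S100a8 the nearest gene was S100a9 (0.409), followed by Gsta3 (0.425) and Rspo1 (0.493). For S100a9 the nearest was Ms4a1 (0.391), a B cell gene, followed by S100a8 (0.409) and Lect1 (0.462). Cxcl1 was nearest to Cd300lh (0.159), Nfe2 (0.182) and Fbxo17 (0.218), none of them called. The search left out predicted and numbered gene names. Within it, the nearest matches of the calprotectin genes were less close than those of Csf3r, Cxcl5 and Cxcl1. S100a8 rested on 4 to 37 reads per library and S100a9 on 5 to 50, and the part of counting error was not tested.

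A wider list of neutrophil identity and granule genes was uneven. Of 32 genes fixed, 31 had a row, 17 were tested, 12 were called higher, 1 lower and 4 not, and the median log2 fold change of the tested genes was 2.59. Il1r2, Fpr1 and Ltf, with every control under 10, passed the filter only through ICI-myocarditis, where they are high. Fpr2, Clec4e and Clec4d had fewer than 3 controls at 10 or more and also needed ICI-myocarditis libraries to pass. These counts and this median thus describe the tested genes and not the whole list. Without the filter 12 of 29 genes were called and the median was 1.38. The called genes with the lowest p were Itgam (2.59), Il1r2 (3.41), Fpr2 (3.52), Anxa1 (1.38) and Pglyrp1 (2.73), with limma adjusted p from 0.00285 to 0.0129. Il1r2, which encodes a decoy receptor for interleukin-1, had 1.008 to 3.70 normalized counts in controls and 19.6 to 34.8 in ICI-myocarditis. Fpr2, a formyl peptide receptor gene, rose from 3.02 to 19.7 in controls to 58.0 to 190.3. Lyz2, the lysozyme gene shared with macrophages and the most abundant of the list, rose by 1.40 (limma adjusted p = 0.0202), a call lost without ICI-myocarditis 1 or 3, and that of Pglyrp1 was lost without ICI-myocarditis 3. The gene called lower was G0s2, an inhibitor of fat breakdown that is also expressed in muscle, which fell by 0.98 on the log2 scale (limma adjusted p = 0.0444), a call kept in 8 of 19 alternatives and lost without control 1, 3 or 4 or ICI-myocarditis 2 or 3. It was chosen after its values were seen. The 13 calls of 17 tested became 7 of 17 without control 1 or control 3. They became 8, 7 and 3 of 14 tested without ICI-myocarditis 1, 2 and 3, and 6 of 12 with control 2 and ICI-myocarditis 3 left out together. Over all tested genes, calls fell too, from 2392 to 1505 without control 1 and to 1294 without control 3. They fell to 1390 without ICI-myocarditis 2 and to 983 without ICI-myocarditis 3.

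Levels of granule protein genes were uneven. Lcn2, the lipocalin-2 gene, had 33.3 to 96.3 normalized counts in controls and 62.3 to 170.4 in ICI-myocarditis, and Mmp9, a gelatinase gene, had 21.2 to 46.9 and 5.07 to 26.0. Neither was called (limma adjusted p = 0.122 for Lcn2 and 0.113 for Mmp9), though Lcn2 passed without control 4 (0.0410), and both were chosen after their values were seen. Of 7 markers fixed beside the 8 genes (Mpo, Elane, Ltf, Camp, Ngp, Mmp8 and Cd177), 1, Ltf, was tested. Ltf, the lactoferrin gene, had 1.008, 7.40, 2.23 and 0 normalized counts in controls and 17.4, 26.1 and 16.8 in ICI-myocarditis. The groups did not overlap, but every control was under 10, so Ltf entered the test only through ICI-myocarditis and its call is not counted as support. Elane, the neutrophil elastase gene, was at 0 in 5 libraries and at most 1.23. Mpo, the myeloperoxidase gene, was at most 4.09, and Camp and Ngp, of the secondary granules, were at most 6.05 and 7.06. Mmp8 and Cd177 reached 13.8 and 16.05 in ICI-myocarditis 3 and at most 4.35 elsewhere. The 7 together summed to 15.1, 16.04, 19.0 and 3.75 in controls and to 30.7, 41.3 and 52.0 in ICI-myocarditis. Every ICI-myocarditis library was above every control in that sum, but Ltf was its largest single part in all ICI-myocarditis libraries. Of the 7, only 1, Ltf, had every ICI-myocarditis library above every control by itself. The sum is therefore not counted as support either. Ly6g was not analysed here.

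**Figure D4:**
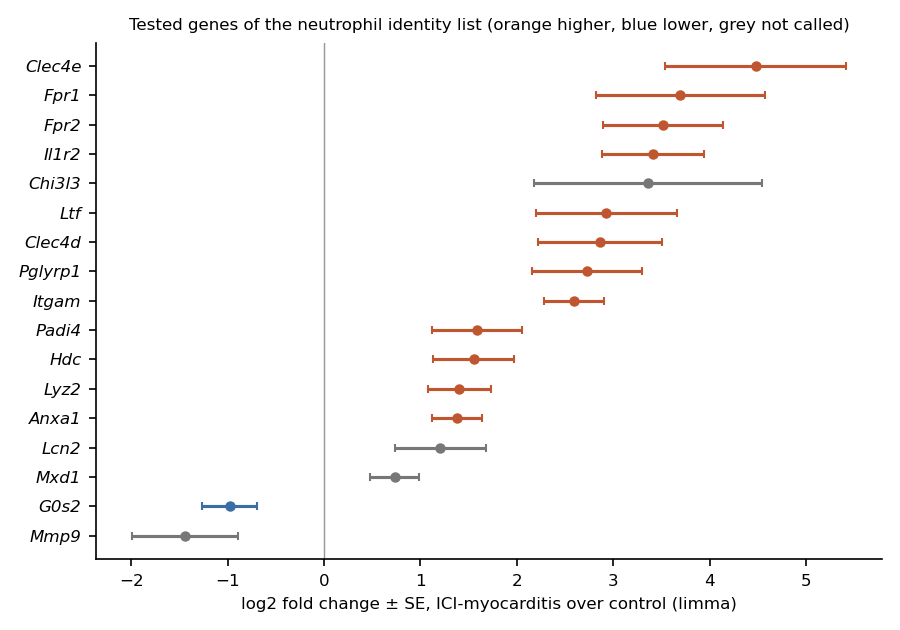
Log2 fold change ± SE from limma (horizontal axis) for the 17 tested genes of the neutrophil identity list, with genes called higher in orange, lower in blue and not called in grey. The 12 genes called higher and the 1 called lower are marked; the other 14 genes with a row lay under the filter and are not drawn.

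Most markers of monocytes and macrophages were higher in ICI-myocarditis, as were Csf3r and the T cell markers given below. Of 14 such genes 13 were called higher and 1, Cd163, lower, with a median log2 fold change of 2.46, and their sum ran from 13863 to 17249 normalized counts in controls and from 45759 to 82747 in ICI-myocarditis. C1qb, a complement gene of macrophages, rose by 2.74 and Adgre1, listed as Emr1, by 2.28 (limma adjusted p = 0.00251 for both). Cd163, a scavenger receptor gene of resident macrophages, fell by 0.92 (limma adjusted p = 0.00799). The part of these cells in the Csf3r and Cxcl5 values was not tested. All 11 T cell markers with a row were called higher, and their sum ran from 683 to 2641 in controls and from 9842 to 15545 in ICI-myocarditis.

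Of 14 eosinophil, mast cell and basophil markers with a row, 5 were tested and 2 were called lower, the mast cell genes Cpa3 (-1.61, limma adjusted p = 0.0257) and Mcpt4 (-1.602, limma adjusted p = 0.0477), which passed in 13 and 7 of 18 alternatives. Both calls were lost without control 1, control 3, ICI-myocarditis 2 or ICI-myocarditis 3, and that of Mcpt4 also without control 4. Genes of this list under the filter were mixed. Prg2 had 1.01, 0, 2.23 and 0 normalized counts in controls and 7.16, 5.07 and 6.88 in ICI-myocarditis. Epx was at 0 in all controls and had 1.02, 0.725 and 3.06 in ICI-myocarditis. Ms4a2 and Tpsab1 went the other way, with every ICI-myocarditis library below every control. All of these are low counts and were not tested. Ear1 and Mcpt8 were at 0 in all 7 libraries.

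**Figure D5:**
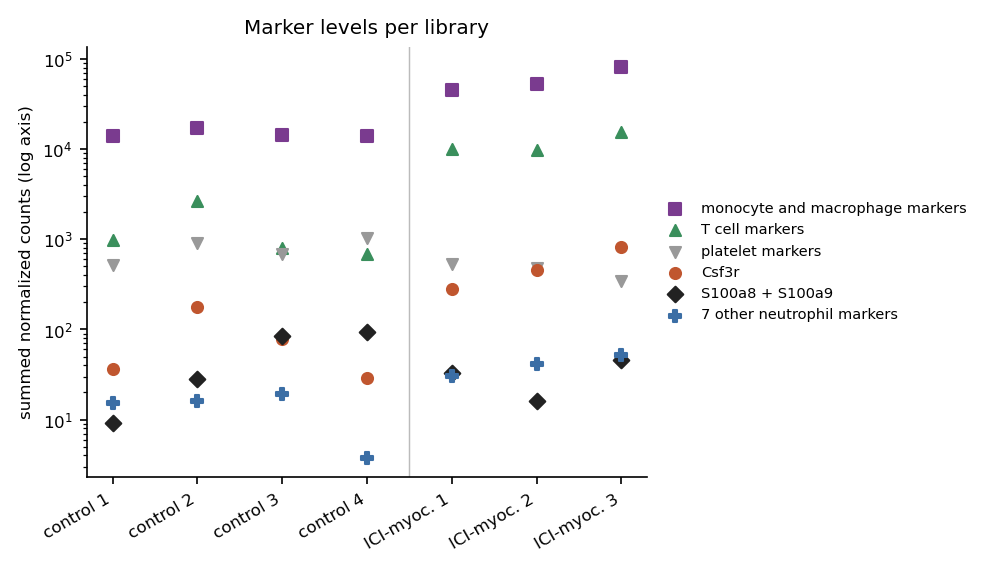
Summed normalized counts of marker lists and of single genes in each library (vertical axis, log scale; libraries along the horizontal axis, controls left of the line). Csf3r and the monocyte and macrophage sum both lie above the highest control in every ICI-myocarditis library, whereas S100a8 plus S100a9 is highest in controls 3 and 4.

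The factors that make neutrophils or induce these chemokines were next. Of 19 genes, 12 were tested and 8 were called higher, none lower, with a median log2 fold change of 1.62. Without the filter 10 of 18 genes were called and the median was 1.27. Csf2rb, the shared receptor subunit for GM-CSF, interleukin-3 and interleukin-5, rose by 3.18, Gfi1, a transcription factor gene of granulocytes and lymphocytes, by 3.57, Csf2ra by 1.84 and Tnf by 3.94 (limma adjusted p from 0.00394 to 0.0152). Il17ra, a receptor subunit for interleukin-17, rose by 1.53 (limma adjusted p = 0.0255). Tnf had 6.05, 82.6, 23.4 and 7.51 normalized counts in controls and 150.4, 239.9 and 648 in ICI-myocarditis. Gfi1 had 4.03, 22.2, 14.5 and 3.75 in controls and 90.0, 108.7 and 147 in ICI-myocarditis. Both had fewer than 3 controls at 10 or more and needed ICI-myocarditis libraries to pass the filter. Without ICI-myocarditis 3 the calls of Csf2ra, Tnf and Il17ra were lost, and 2 genes of the list were called. Il17ra was also lost without control 1, control 3 or ICI-myocarditis 2. The number called was 5 without control 1, 4 without control 3, 5 without ICI-myocarditis 1 and 4 without ICI-myocarditis 2. Calls over all genes also fell without control 1, control 3, ICI-myocarditis 2 or ICI-myocarditis 3, as given above.

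Several ligand genes of these pathways had few reads. Csf2, which encodes GM-CSF, had at most 4.93 normalized counts. Csf3, which encodes the ligand of the Csf3r product, had at most 3.62 normalized counts in any library. Il17a was at 0 in all 7 libraries and Il17f at most 1.25, where a count of 0 allows up to 3.75. Il6 had at most 3.35 normalized counts in controls and 6.14, 7.97 and 19.9 in ICI-myocarditis. Il1b, chosen after its values were seen, had 13.1, 83.9, 15.6 and 1.25 in controls and 98.2, 76.8 and 71.8 in ICI-myocarditis, and control 2 lay within the ICI-myocarditis range (log2 fold change 2.50, SE 0.988, limma adjusted p = 0.124). Without control 2 Il1b passed, at 3.35 (limma adjusted p = 0.0102). Tnfrsf1a and Zfp36, the most abundant of the list, were not called (0.86 and 0.80, limma adjusted p = 0.0543 and 0.249).

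Other attractants of neutrophils and their receptors formed a list of 17 genes, all tested. Of these, 11 were called higher, 1 lower and 5 not, with a median log2 fold change of 1.73. Fpr1 again entered only through ICI-myocarditis, and Fpr2 needed those libraries to pass the filter. Alox5ap, needed to make leukotrienes, rose by 2.18, C3ar1 and C5ar1, receptors of complement fragments, by 2.51 and 2.23, C3 by 2.50, and Ccl6 by 1.505 (limma adjusted p from 0.00251 to 0.00601). Cxcl12, whose product holds neutrophils in the bone marrow through CXCR4, was the gene called lower, from 12870, 9431, 7175 and 5161 normalized counts in controls to 1858, 4200 and 3054 in ICI-myocarditis. It fell by 1.51 (SE 0.370, limma adjusted p = 0.0251), and 14 of 19 alternatives kept the call, which was lost without control 1 or 3 or ICI-myocarditis 1 or 3. Many genes of this list are also expressed in monocytes and macrophages, whose summed markers are given above.

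The S100 family did not move as 1 block. Of 16 genes fixed, 11 were tested, 3 were called higher and none lower, with a median log2 fold change of -0.01 that became 0.88 over all 16 without the filter. The called genes were S100a4 (3.22), S100a6 (1.72) and S100a11 (1.12), with limma adjusted p of 0.0096, 0.00438 and 0.0252, and S100a11 passed in 14 of 19 alternatives, missing without control 1, control 3, ICI-myocarditis 2 or ICI-myocarditis 3. S100a4, also called fibroblast-specific protein though leukocytes express it too, had 57.5, 434, 249 and 235 normalized counts in controls and 3070, 1102 and 1822 in ICI-myocarditis. S100a1, the most abundant and a calcium sensor of heart muscle, was not called (-0.52, limma adjusted p = 0.477), nor was S100a10 (0.85, limma adjusted p = 0.151). Of 6 calprotectin receptors and partners, Myd88 (1.33, limma adjusted p = 0.00424) and Tlr4 (0.70, limma adjusted p = 0.0467) were called, Tlr4 in only 5 of 19 alternatives and in none with a library left out, and Bsg, which encodes basigin and was the most abundant, was not (-0.68, limma adjusted p = 0.298).

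Of 12 adhesion molecules that neutrophils use to leave the blood, 8 were called higher and none lower, with a median of 1.99. Cd44 rose by 2.52, Selplg, the P-selectin ligand, by 3.13, and the integrin subunit genes Itgam, Itgb2 and Itgal by 2.59, 3.29 and 3.99 (limma adjusted p from 0.00251 to 0.00978). The number called was 5 without control 1, control 3, ICI-myocarditis 2 or ICI-myocarditis 3, where calls over all genes fell as well. Pecam1, an endothelial gene and the most abundant of the list, was not called (-0.74, limma adjusted p = 0.105). T cells and macrophages carry several of these molecules, and their part in these values was not tested. Of the 4 resistin-like genes only 1 passed the filter and it was not called.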

How the data were processed

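The authors deposited 1 table of gene read counts divided by a size factor per library, a normalized signal, beside their own log2 fold changes, test scores and p-values. Per the submitters' processing notes, STAR 2.7.3 and builds GRCm38 and mm10 were named; the counting program is not given in the sources used here. The deposited signal was whole reads times 1 step per library, and reads were recovered from it; for control 1 the step lies so near 1 that its recovered reads are less certain. Of 23420 rows, 27 named like dates were left out (0.143% of reads).

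Values were compared on log2(normalized count + 1) with limma 3.58.1 (trend and robust variance, R 4.3.3) over 15236 genes that reached 10 normalized counts in 3 or more libraries, with Benjamini-Hochberg adjustment. edgeR 4.0.16 and DESeq2 1.42.0 on recovered reads, other scalings, filters and pseudocounts, and each library left out were alternatives. On simulated data for this comparison (15060 genes), 14.9%, 86.9% and 94.3% of genes changed by 1, 2 and 3 on the log2 scale were recovered, and 6.52% of calls were wrong. The p-values measure the spread between 7 mice. The 8 genes and all lists were chosen with earlier results of these data known. Named list genes are the 5 called with the lowest p and the 2 most abundant, by list; some that met this rule in the lists of other cell types and resistin-like genes are given only as counts. Floors cover counting error only.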

Additional observations from a re-analysis of the deposited data

Results flagged for a closer look

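The summed level of the 7 other neutrophil markers (Mpo, Elane, Ltf, Camp, Ngp, Mmp8 and Cd177) was low in control 4, at 3.75 normalized counts against 15.1, 16.04 and 19.0 in controls 1 to 3. On the scale of log2(sum + 1), its gap to the nearest control was 0.851 of the range of the 4 controls, above Dixon's critical value for a group of 4. On the linear scale the share was 0.747, below that value. It was the only 1 of 31 results examined to pass, and chance passes about 1 in 20.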

How the results depend on the processing

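Csf3r kept its call in 18 of 19 alternatives and Cxcl5 in 11 of 19, and the other 6 genes passed in none of theirs. Cxcl5 missed the threshold with scaling by total reads (3.22) and with edgeR (2.64), so that 1 of the 8 genes was called under each. The list of CXCR2 ligands then had 0 calls under both, and 2 with DESeq2. Calls over all genes numbered 3998 with voom. Those called lower numbered 311 with total-read scaling, 1279 with DESeq2 and 1516 with voom. Neutrophil identity genes called were 8 of 11 tested at a mean of at least 50 normalized counts, against 13 of 17, and 6 of 12 with control 2 and ICI-myocarditis 3 left out together, chosen after seeing the data. Total-read scaling moved the median of all genes from -0.02 to 0.13.

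With 1 library left out at a time, calls over all genes ranged from 983 to 3333 (higher 827 to 2248, lower 156 to 1085), those of the 8 genes from 0 to 2, of CXCR2 ligands from 0 to 1, of neutrophil identity genes from 3 (of 14 tested) to 14 (of 17) and of inducers from 2 to 10. The log2 fold changes ranged from 2.52 to 3.41 for Csf3r, 2.54 to 3.71 for Cxcl5, 0.41 to 1.05 for Cxcl1, 0.58 to 1.32 for Cxcl2, 0.30 to 1.25 for Cxcr2, 0.25 to 1.46 for Retnlg, -1.29 to -0.20 for S100a9 and -0.77 to 0.43 for S100a8. S100a8 changed sign without control 3 (0.09), control 4 (0.21) or ICI-myocarditis 2 (0.43). Log2 ratio differences ranged from 2.11 to 2.92 for Cxcl5 over Cxcl1, 0.26 to 0.76 for Cxcl2 over Cxcl1, 1.40 to 2.41 for Cxcl5 over Cxcl2, 0.01 to 0.90 for S100a8 over S100a9, 2.52 to 3.98 for Csf3r over S100a8 plus S100a9, and -0.02 to 0.68 for Csf3r over Itgam, negative without control 4 (-0.0205). The cause of these changes was not tested.

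Samples with the same replicate number did not deviate together (correlations -0.27, -0.21 and -0.08), so the numbers were not taken as pairs. A fit with the replicate number as a block, which leaves out control 4, called 389 genes lower and 2 of the CXCR2 ligand list, and gave S100a8 0.21. Low counts limit Cxcl2, Cxcr2 and Retnlg, at 0 to 32 reads per library.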
